A study of Homo sapiens with 18 samples.

Results

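ETV1, ETV4 and ETV5 make up the PEA3 subfamily of ETS transcription factors, and their expression was examined in HEK cells, an established human embryonic kidney line, in which the gene ATXN1L had been targeted. The genes were taken by the symbols of the probe sets, and each had exactly 1 probe set, so they are 3 of the 14884 genes with a symbol on the array. The tested lines were A10, A30 and B21, which carry the label ATXN1L-KO, and they were set against 3 lines that are wild type for ATXN1L, the CRISPR control lines N4 and N8 and the parental cells. Each line was represented by 3 samples on 3 Affymetrix arrays, 18 arrays in all. All lines grew in the same serum-containing medium with no other agent. Per the labels, cells went through CRISPR treatment, puromycin selection and isolation of single colonies, so A10, A30, B21, N4 and N8 each stand for 1 clone, and the same text is attached to the parental samples. Nothing says how far the 3 samples of a line were grown apart, so p-values over arrays measure the spread between these samples, which may be technical.

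PEA3 factors bind DNA through their ETS domain and activate transcription. They are known as effectors of receptor tyrosine kinases: their genes are induced when RAS and ERK signalling is active, and in mice Etv4 and Etv5 act downstream of the receptor Ret in the branching ureteric bud of the kidney. CIC (capicua) is a repressor whose best known direct targets are these genes. ATXN1L and its relative ATXN1 bind CIC and are known to stabilise the protein, and ERK signalling relieves its repression.

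CIC is known to bind the octamers TGAATGAA and TGAATGGA, so these letters were looked for on both strands of 300-base windows around RefSeq start sites (GRCh38.p14). The table held 6 windows for ETV1, and 1 of them had a match; windows of ETV4 and ETV5 were not analysed here. It is shown because, of the ETV1 windows, it holds the letters of the repressor's octamer, in capitals, at chr7:13991376-13991675 on the minus strand, where the octamer begins at position 126 of the window, or −125 from the start site.

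ETV1 promoter window: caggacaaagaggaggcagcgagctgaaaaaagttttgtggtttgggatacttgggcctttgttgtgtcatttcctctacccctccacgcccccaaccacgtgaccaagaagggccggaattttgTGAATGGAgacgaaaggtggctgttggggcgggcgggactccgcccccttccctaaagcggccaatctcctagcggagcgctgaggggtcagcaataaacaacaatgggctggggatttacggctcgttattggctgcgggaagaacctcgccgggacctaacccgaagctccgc

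Of the 6 windows of CIC, ATXN1 and ATXN1L, the 1 of CIC and the 1 of ATXN1 with a match are shown beside it as 30-base stretches around the octamer, again in capitals. The CIC stretch lies in chr19:42269002-42269301 on the plus strand and reads the octamer on the opposite strand, and the ATXN1 stretch lies in chr6:16760135-16760434 on the minus strand. The ATXN1L window had no match.
CIC: gctgttgcaggTCCATTCAccattttgtgt
ATXN1: tgctgggagggTGAATGAAgccaggaggag

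Of 35116 windows, 2.63% held either octamer, 1.65% held TGAATGAA and 1.03% held TGAATGGA, and the octamers can overlap each other. Counted by gene, 3.22% of 27305 genes had a window with either. Of 10 other CIC target genes with windows in the table, 1 had a match (SPRED3), and of 21 other ETS genes, 1 had a match (SPDEF). A match of letters is a description of the window and not a binding site.

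The targeted gene was checked first. The ATXN1L signal ran from 7.20 to 7.61 on the 9 KO-labelled arrays and from 7.05 to 7.29 on the 9 wild-type arrays (log2). It was therefore not lower in the lines labelled KO: the means of lines were 7.41 ± 0.06 in KO-labelled lines and 7.16 ± 0.05 in wild-type lines (SD, n = 3 lines each), a difference of 0.25 ± 0.08 (SE, limma adjusted p = 0.468). Set against the wild-type mean on arrays, it was called higher in A30 and in B21. The labels do not say which part of the transcript was edited, so this signal does not check them. Replicate 1 of A10 stood apart, with a mean correlation of 0.0747 with the other A10 arrays after the mean of all arrays was removed, against 0.329 to 0.596 for the other 17 arrays with their own lines. Of 10 embryonic kidney markers, 7 were measured above the filter used below, and their means ran from 5.29 to 7.81 in KO-labelled lines and from 5.51 to 7.99 in wild-type lines. EYA1 was the highest and OSR1 the lowest, and PAX2, at 5.52 in KO-labelled lines and 5.58 in wild-type lines, also averaged under the filter value. PAX8 lay at 4.92 in KO-labelled lines and 5.00 in wild-type lines and was not tested. Between single clones and the wild-type mean, EYA1 was called lower in A10 (−0.59, adjusted p = 0.0289), OSR1 in A30 (−0.40, 0.00334) and SALL1 in B21 (−0.30, 0.0107). That is 1 of 7 in each line, where lower calls made up 4.56%, 16.3% and 7.20% of all genes tested. OSR1 was at 5.12 in A30 and 5.16 in the parental cells, against 5.52 in N4 and 5.87 in N8. Markers of fibroblasts, keratinocytes and leukocytes with a symbol (LUM, DCN, KRT5, KRT14 and CD14) had means of 2.30 to 5.42 in KO-labelled lines and 2.23 to 5.25 in wild-type lines, and LUM was called lower in A30 (−0.34, 0.0206) and higher in B21 (0.70, 0.000275). LUM was at 4.90 in A30 and 4.97 in N8, against 5.23 in the parental cells and 5.54 in N4.

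The signal of all 3 PEA3 genes was higher in each KO-labelled line than in each wild-type line when the means of lines were compared. The ratio of KO-labelled to wild-type lines was 1.51 for ETV1 (95% confidence interval 1.25 to 1.82), 1.79 for ETV4 (1.33 to 2.42) and 1.91 for ETV5 (1.62 to 2.24). Such a separation of line means in the same direction was found for 7.37% of the 9686 genes tested. None of the 3 passed the test between genotypes across all genes, in which 0.00% of genes were called higher (limma on line means, Benjamini-Hochberg adjusted p under 0.05). At an unadjusted p under 0.05, 476 genes were higher, or 4.91% of those tested, and they included all 3 PEA3 genes. ETV5 met the filter on dim genes only through its KO-labelled arrays, so these shares are a description, not support. With arrays as units and the line as a random block, 75 genes were called in either direction, ETV5 among them (adjusted p = 0.0310). That fit took 1 correlation within lines for all genes, whatever their own spread between clones. The SE of ETV5 was 0.20 in it, against 0.10 on line means. With 3 lines against 3, an exact two-sided permutation test over lines cannot go below 0.1, and each PEA3 gene reached that p.

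**Figure D1:**
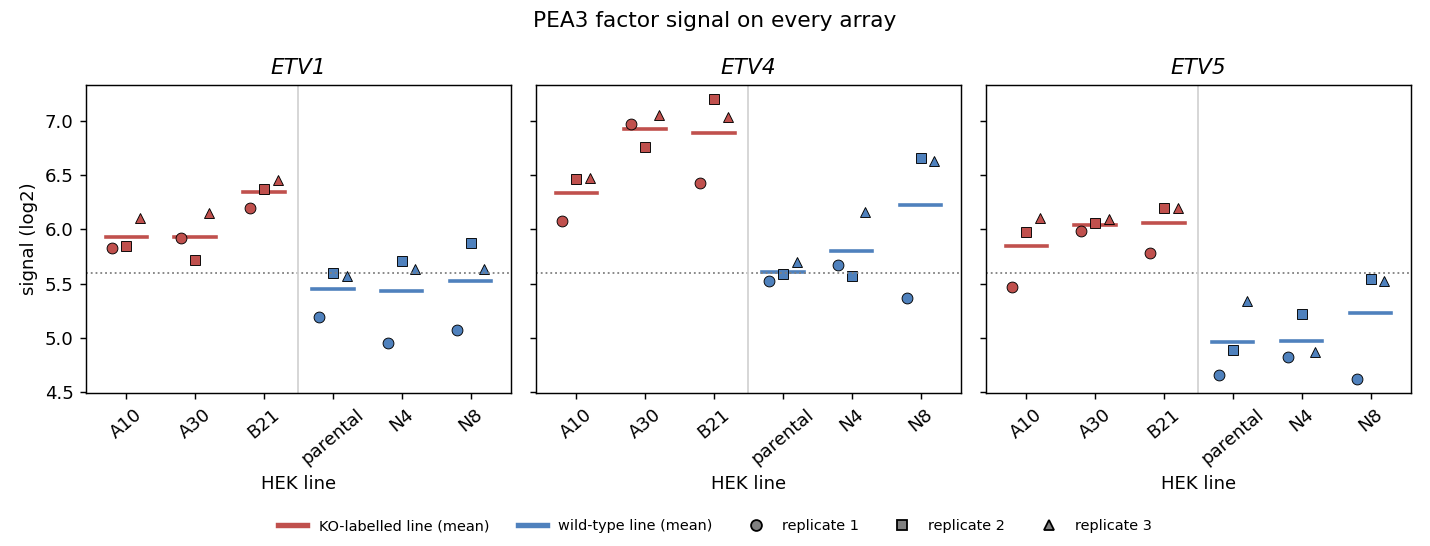
Signal of ETV1, ETV4 and ETV5 on each of the 18 arrays (vertical axis, log2) by HEK line (horizontal axis), with KO-labelled lines in red at the left and wild-type lines in blue at the right; bars are means of 3 arrays, symbols give the replicate number and the dotted line is the filter value of 5.6. The 3 KO-labelled line means lie above the 3 wild-type line means in each panel, while single arrays overlap, most clearly for ETV4 in N8.

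ETV1 is the member best known from prostate cancer, where its gene is a fusion partner, and from gastrointestinal stromal tumours. Its signal on replicates 1, 2 and 3 was 5.83, 5.85 and 6.10 in A10, 5.92, 5.72 and 6.15 in A30, and 6.20, 6.37 and 6.45 in B21 (log2). It was 5.07, 5.87 and 5.63 in N8, 4.95, 5.71 and 5.63 in N4, and 5.19, 5.60 and 5.57 in the parental cells. All 3 B21 arrays lay above every wild-type array, whereas A10 and A30 had arrays under the highest wild-type array, replicate 2 of N8. The mean of lines was 6.07 ± 0.24 in KO-labelled lines and 5.47 ± 0.05 in wild-type lines (SD, n = 3 lines each), a difference of 0.60 ± 0.12 (SE, limma adjusted p = 0.310). The spread between KO-labelled lines was the wider one and came from B21, at 6.34 ± 0.13 (SD, n = 3 arrays), against A30 at 5.93 ± 0.22 and A10 at 5.93 ± 0.15.

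ETV4, also called PEA3 and E1AF, gave the subfamily its name and is known for raising matrix metalloproteinase genes in invasive tumours. Its signal was 6.08, 6.46 and 6.47 in A10, 6.97, 6.76 and 7.05 in A30, and 6.43, 7.20 and 7.03 in B21. It was 5.37, 6.66 and 6.63 in N8, 5.67, 5.57 and 6.16 in N4, and 5.52, 5.59 and 5.70 in the parental cells. The groups overlapped through N8, whose replicates 2 and 3 lay above all A10 arrays and above replicate 1 of B21. The mean of lines was 6.72 ± 0.33 in KO-labelled lines and 5.87 ± 0.32 in wild-type lines, a difference of 0.84 ± 0.19 (SE, limma adjusted p = 0.310). Leaving out replicate 1 of A10 gave 0.89 for ETV4 and 0.61 for ETV1 (adjusted p = 0.153 each). Without the whole line A10, the lowest of the KO-labelled lines for ETV4, its difference was 1.03 ± 0.16 and passed (adjusted p = 0.0365). In that fit 72 genes were called. ETV4 did not pass without the line N8 (adjusted p = 0.187). Nor did it pass without the line N4, the parental cells, B21 or A30 (adjusted p = 0.761, 0.759, 0.656 and 0.677).

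ETV5, also called ERM, is known for keeping mouse spermatogonial stem cells and, with ETV4, for branching of lung and kidney. Its signal was 5.47, 5.97 and 6.10 in A10, 5.98, 6.06 and 6.09 in A30, and 5.78, 6.20 and 6.20 in B21. It was 4.62, 5.54 and 5.52 in N8, 4.82, 5.22 and 4.87 in N4, and 4.66, 4.89 and 5.34 in the parental cells. Only replicate 1 of A10 fell among the wild-type arrays, under replicates 2 and 3 of N8, and the other 8 KO-labelled arrays lay above all 9 wild-type arrays. The mean of lines was 5.98 ± 0.12 in KO-labelled lines and 5.05 ± 0.15 in wild-type lines, a difference of 0.93 ± 0.10 (SE, limma adjusted p = 0.0762). Without replicate 1 of A10 the difference was 0.99 ± 0.09 and passed (adjusted p = 0.0252), as it did without the line A10 (1.00 ± 0.11, adjusted p = 0.0131) and without the line N8 (1.02 ± 0.10, adjusted p = 0.0269). It also passed when replicate 2 of the parental cells, replicate 2 or 3 of N8, or replicate 3 of B21 was left out, at 0.91 to 0.98. Other omissions raised the adjusted p. Leaving out replicate 1 of N8 gave 0.83 (adjusted p = 0.336). Without the line N4, the parental cells, B21 or A30 the adjusted p was 0.323, 0.280, 0.226 and 0.211. With replicates 2 and 3 alone the ETV5 difference was 0.87 (adjusted p = 0.106).

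ETV1 and ETV5 lay close to the filter on dim genes, as did ETV4 in wild-type lines. The filter asked for at least 3 arrays above 5.6, which is the 40th percentile over named genes and all arrays. ETV5 exceeded that value on 8 of 9 KO-labelled arrays and 0 of 9 wild-type arrays, so it was tested only because of the group in which it was high. With no filter, ETV5 had adjusted p = 0.0878 between genotypes, and 0.0299, 0.00176 and 0.00372 for A10, A30 and B21 against the wild-type mean. ETV1 exceeded it on 9 KO-labelled and 4 wild-type arrays, and ETV4 on 9 KO-labelled and 5 wild-type arrays. No detection call was used, so how far these signals stand above background was not tested.

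The KO-labelled clones were then taken 1 at a time and compared with the wild-type mean, with arrays as units. ETV5 rose in A10, A30 and B21, ETV4 rose in A30 and B21, and ETV1 rose in A30 and B21. These 3 comparisons share the wild-type arrays and are therefore not independent. They cover the spread between samples of a clone, not that between independently edited clones.

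In B21, 3 of 3 PEA3 genes were called higher, against a background of 8.82% of all genes tested. ETV1 differed by 0.87 ± 0.16 (SE, limma adjusted p = 0.00169), ETV4 by 1.01 ± 0.22 (0.00464) and ETV5 by 1.01 ± 0.18 (0.00141), with overlapping 95% intervals. In A30, 3 of 3 were called higher against a background of 12.9%. There ETV4 differed by 1.05 ± 0.22 (adjusted p = 0.00162) and ETV5 by 0.99 ± 0.18 (0.000657). ETV1 differed by 0.46 ± 0.16 (adjusted p = 0.0436), with adjusted p from 0.00723 to 0.199 under other settings, and this call was lost under 11 of 27 of them. Leaving out 1 array was enough, namely replicate 1 or 3 of A30, replicate 2 or 3 of B21, or replicate 1 of N8, N4 or the parental cells (0.35 to 0.47). In A10, 1 of 3 was called higher against a background of 3.84%. This was ETV5, by 0.79 ± 0.18 (adjusted p = 0.0130), and without replicate 1 of A10 it differed by 0.98 ± 0.20 (0.00516). Without replicate 2 or replicate 3 of A10 the ETV5 call was lost, at 0.73 (adjusted p = 0.0847) and 0.67 (0.107). ETV1 in A10 differed by 0.46 ± 0.16 (adjusted p = 0.0986) and ETV4 by 0.46 ± 0.22 (0.220), with a 95% interval for ETV4 of −0.00 to 0.93. Genes called higher in each of the 3 lines made up 0.743% of those tested, and of the PEA3 genes ETV5 was the 1 among them. ETV5 was tested only because of its KO-labelled arrays. That share and the counts of PEA3 genes called in B21, A30 and A10 are therefore a description, not support.

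**Figure D2:**
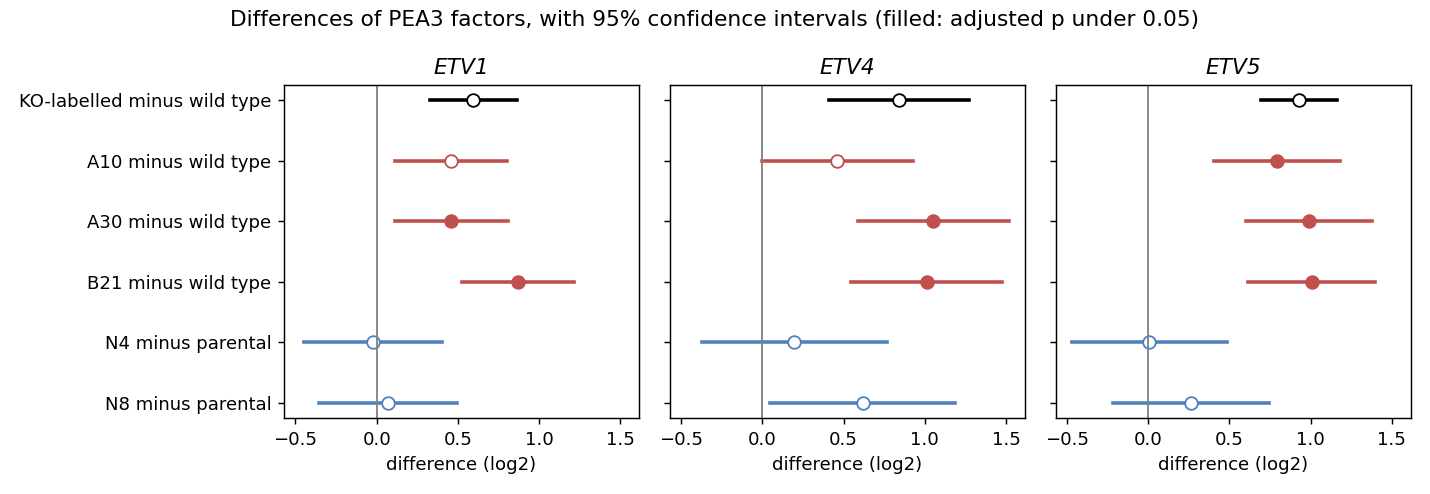
Differences of ETV1, ETV4 and ETV5 (horizontal axis, log2) between KO-labelled and wild-type lines, for single KO-labelled clones against the wild-type mean, and for single CRISPR control lines against the parental cells; points are estimates, bars are 95% confidence intervals and filled points have an adjusted p under 0.05. Filled points are ETV5 in A10 and all 3 genes in A30 and B21, and among the control lines the interval of ETV4 in N8 lies furthest to the right.

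The 3 KO-labelled lines were compared with each other to ask whether the clones differed. For ETV4 the order was A30 at 6.93 ± 0.15, B21 at 6.89 ± 0.40 and A10 at 6.34 ± 0.22 (SD, n = 3 arrays each). A10 minus A30 was −0.59 ± 0.27 for ETV4 (95% interval −1.16 to −0.02, limma adjusted p = 0.132), and 0 of 3 PEA3 genes passed in this comparison, against 21.9% of all genes. B21 minus A10 was 0.41 ± 0.20 for ETV1 (adjusted p = 0.199) and 0.55 ± 0.27 for ETV4 (0.202), and 0 of 3 passed, against 13.1% of genes. B21 minus A30 was 0.41 ± 0.20 for ETV1 (adjusted p = 0.232), −0.04 ± 0.27 for ETV4 and 0.02 ± 0.23 for ETV5, with 0 of 3 passing against 9.80% of genes. ETV5 was the most even of the 3, at 6.06 ± 0.24 in B21, 6.04 ± 0.06 in A30 and 5.85 ± 0.33 in A10. The F test over the 3 KO-labelled lines gave adjusted p = 0.198 for ETV1, 0.178 for ETV4 and 0.707 for ETV5, so 0 of 3 passed where 25.8% of all genes did. The 95% intervals of B21 minus A10 reached 0.84 for ETV1 and 1.12 for ETV4, so a missed threshold does not show that the clones were alike. Without adjustment, ETV4 in A10 against A30 was the 1 pair under 0.05 (limma unadjusted p = 0.0428).

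N4 and N8 were compared with the parental cells to see how much lines differ when all are wild type. N4 was close to the parental cells, at −0.02 ± 0.20 for ETV1, 0.20 ± 0.27 for ETV4 and 0.01 ± 0.23 for ETV5 (SE, limma adjusted p = 0.976, 0.804 and 0.990), and 0 of 3 were called, against 0.547% of all genes in either direction. N8 had more ETV4 than the parental cells, at 6.22 ± 0.74 in N8 and 5.60 ± 0.09 in the parental cells (SD, n = 3 arrays each). That difference of 0.62 ± 0.27 had a 95% interval of 0.05 to 1.19 and did not pass (adjusted p = 0.133, unadjusted p = 0.0352). ETV5 in N8 differed by 0.26 ± 0.23 (adjusted p = 0.471) and ETV1 by 0.07 ± 0.20 (0.858), so 0 of 3 passed where 14.7% of all genes did. N8 minus N4 was 0.42 ± 0.27 for ETV4 (adjusted p = 0.339), and 0 of 3 passed, against 13.9% of genes. The F test over the 3 wild-type lines gave adjusted p = 0.934 for ETV1, 0.232 for ETV4 and 0.603 for ETV5, and 0 of 3 passed, against 16.1% of genes.

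A10 and N8 were the neighbours in the order of lines at the boundary between the genotypes for each gene. A10 minus N8 was 0.12 ± 0.27 for ETV4, with a 95% interval of −0.45 to 0.69 (limma adjusted p = 0.832), so these lines were not told apart by ETV4. For ETV5 it was 0.62 ± 0.23 (95% interval 0.14 to 1.10, adjusted p = 0.0838, unadjusted p = 0.0141) and for ETV1 0.40 ± 0.20 (adjusted p = 0.210). None of the 3 passed, in a comparison in which 13.0% of genes did.

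Part of the spread within lines followed the replicate number. Replicate 1 was lower than replicates 2 and 3 by 0.36 to 0.45 on the log2 scale, as ETV1 differed by −0.36 ± 0.09 (SE, limma adjusted p = 0.0106), ETV4 by −0.43 ± 0.13 (0.0300) and ETV5 by −0.45 ± 0.09 (0.00327). All 3 of 3 were called lower, against 10.0% of genes. Replicate 1 was the lowest array in 6 of 6 lines for ETV5, in 5 of 6 for ETV1 and in 4 of 6 for ETV4. For ETV4 and ETV5 the gap was widest in N8, at −1.28 and −0.91, and narrowest in A30, at 0.07 and −0.10. The labels do not say what arrays of 1 replicate number share, and its part in the spread was not tested.

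The genotypes were therefore also compared within each replicate number, with 1 array per line. For ETV5 all 3 KO-labelled arrays lay above all 3 wild-type arrays within each of the 3 numbers, with mean differences of 1.04, 0.86 and 0.89 in replicates 1, 2 and 3. Such a separation within every number in this direction was found for 0.888% of genes tested, and of the PEA3 genes only ETV5 showed it. As ETV5 was tested only through its KO-labelled arrays, that share is given as a description. ETV1 separated within replicates 1 and 3, with differences of 0.91, 0.25 and 0.62, and in replicate 2 A30 and A10 lay below N8. ETV4 separated within replicate 1 alone, with differences of 0.97, 0.87 and 0.69. With replicates 2 and 3 alone, ETV1 in A30 was no longer called, at 0.27 (limma adjusted p = 0.107).

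**Figure D3:**
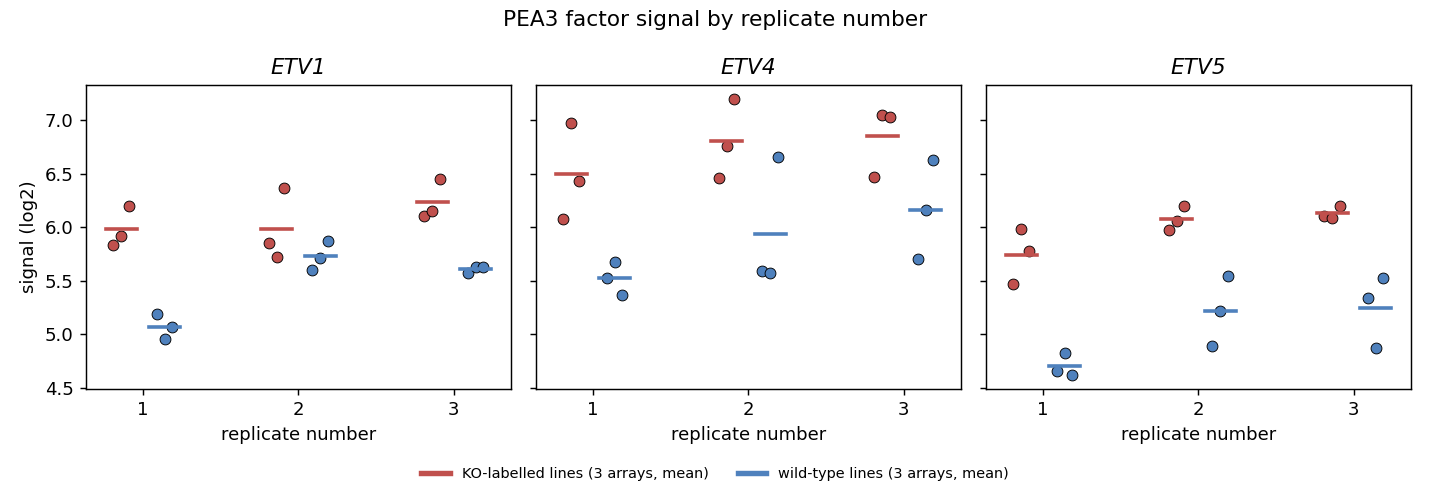
Signal of ETV1, ETV4 and ETV5 (vertical axis, log2) by replicate number (horizontal axis), with the 3 KO-labelled lines in red left of the 3 wild-type lines in blue within each number; points are single arrays and bars are their means. For ETV5 the red points lie above the blue points within each number, and replicate 1 is lowest in both genotypes.

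The 3 PEA3 genes varied together across the arrays. Over the 18 arrays, which share lines and replicate numbers, Pearson's r was 0.890 between ETV4 and ETV5, 0.867 between ETV1 and ETV5 and 0.805 between ETV1 and ETV4. After line means were removed, r was 0.745, 0.723 and 0.669 in the same order, so the genes also moved together between samples of a line. The replicate number was not removed, so these values include the lower replicate 1 signal that all 3 genes shared. They were not set against other pairs of genes. Among the 1944 genes whose line means spanned at least 0.5, those most like ETV4 were BICC1 (r = 0.926), SPRY4 (0.921) and RUNX2 (0.917). Those most like ETV5 were MPV17L2 (r = 0.917), TXNL1 (0.906) and THBS1 (0.903), and those most like ETV1 were CCN2 (0.869), ETV5 and MPV17L2 (0.865). SPRY4, which encodes an inhibitor of receptor tyrosine kinase signalling, is itself known as a CIC target. THBS1, encoding the matrix protein thrombospondin 1, averaged 7.15 in KO-labelled lines and 6.10 in wild-type lines. CCN2, encoding a matricellular growth factor, averaged 9.82 in KO-labelled lines and 8.82 in wild-type lines. Both were picked for following a PEA3 gene over the same arrays, so their higher KO-labelled means are no separate result. Neither passed between genotypes (limma adjusted p = 0.310 for THBS1 and 0.361 for CCN2).

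The 3 genes lie on different chromosomes, and their neighbours were examined because runs of genes along a chromosome can shift together in a clone. The median of 40 tested genes around ETV1 lay below the parental cells in each other line, from −0.25 in A10 to −0.09 in B21 among KO-labelled lines, and at −0.16 in N8 and −0.14 in N4. Around ETV4 it lay above them, at 0.10 to 0.13 in KO-labelled lines, 0.19 in N8 and 0.09 in N4. Around ETV5 it was −0.20 to −0.04 in KO-labelled lines, −0.13 in N8 and 0.03 in N4. After each line was centred on its neighbours, KO-labelled minus wild-type lines gave 0.66 ± 0.11 for ETV1, 0.80 ± 0.18 for ETV4 and 0.98 ± 0.14 for ETV5 (SE, limma adjusted p = 0.150, 0.352 and 0.150). With this centring ETV1 was called in A10 too, at 0.63 (adjusted p = 0.0445).

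Other genes known as CIC targets were examined beside the PEA3 genes, and they are for the most part inhibitors of the same signalling pathway. Of 14 listed, 9 were tested, the others having no symbol here or too low a signal. Between genotypes 8 were higher and 1 was lower, with 0 called and a median difference of 0.20, against −0.00 over all genes tested. At an unadjusted p under 0.05, 4 of the 9 were higher, against 4.91% of all genes. DUSP5 had no wild-type array above the filter value (highest 5.59). For SPRY4 and GPR3 only N8 had any, with its lowest array at 4.65 and 5.48. These genes were therefore tested only because of their KO-labelled arrays, so the counts of higher targets are a description, not support. In A30, 4 were called higher (12.9% of all genes), SPRY4 (0.91 ± 0.23), SPRY2 (0.46 ± 0.13), DUSP5 (0.98 ± 0.24) and DUSP4 (0.57 ± 0.15), the first pair encoding Sprouty inhibitors and the second pair phosphatases that inactivate MAP kinases. In B21, 3 were called higher (8.82% of all genes), DUSP5 (1.03 ± 0.24), DUSP4 (0.64 ± 0.15) and the cyclin D1 gene CCND1 (0.45, limma adjusted p = 0.000684). In A10, 0 were called higher against 3.84% of all genes. GPR3 differed there by 0.32 (adjusted p = 0.102) and SHC3 by 0.39 (0.0712). The cyclin D2 gene CCND2 was called lower in A10 (−0.30, adjusted p = 0.00530) and in A30 (−0.27, adjusted p = 0.00256). Lower calls made up 4.56% of all genes in A10, 16.3% in A30 and 7.20% in B21. DUSP5, the target with the largest difference between genotypes, was at 5.08 ± 0.60 in A10, 6.01 ± 0.02 in A30 and 6.06 ± 0.29 in B21 (SD, n = 3 arrays), against 5.07 ± 0.69 in N8, 4.93 ± 0.28 in N4 and 5.10 ± 0.25 in the parental cells. A difference of DUSP5 between A10 and the other KO-labelled lines was not tested. In replicate 1, 5 of the 9 were called lower than in replicates 2 and 3, against 10.0% of all genes. DUSP6, another MAP kinase phosphatase gene, was below the filter at 5.03 in KO-labelled lines and 4.73 in wild-type lines.

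**Figure D4:**
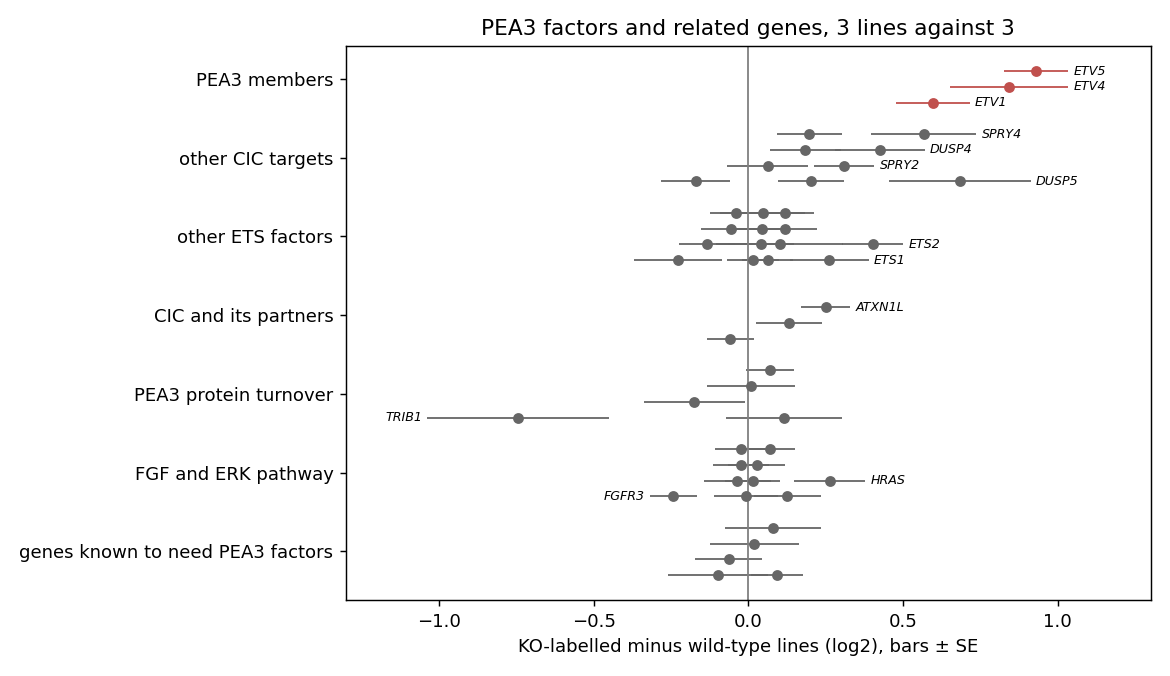
Difference between KO-labelled and wild-type lines (horizontal axis, log2) for the PEA3 genes in red and for the tested members of 6 lists of related genes in grey, 1 row block per list; points are estimates from 3 lines against 3 and bars are standard errors. The PEA3 genes, DUSP5, SPRY4 and DUSP4 lie furthest right and TRIB1 furthest left, and no point passed the test across all genes.

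The other ETS genes served to compare the PEA3 subfamily with the rest of its family. Of 25 listed, 14 were tested, with a median difference of 0.05 between genotypes and 0 called. At an unadjusted p under 0.05, 1 was higher, against 4.91% of all genes. ETS2, a MAP kinase responsive member, was the highest at 0.40 ± 0.10 and rose in A30 (0.53, limma adjusted p = 0.000472) and B21 (0.40, 0.00849). ETS1 rose in the same lines, with 0.50 in B21 (adjusted p = 0.00143) and 0.26 in A30 (0.0448). ELF2 fell in A30 (−0.55, adjusted p = 0.000118), the smallest p of the list there. ELF1 fell in B21 (−0.25, 0.0121), where ELF4 rose (0.22, 0.0429). FLI1 had opposite calls, −0.41 in A10 (adjusted p = 0.0385) and 0.40 in A30 (0.0145), and so had ETV6, −0.28 in A10 (0.0321) and 0.27 in B21 (0.0222). Over the 14, A10 had 0 called higher and 2 lower, against 3.84% and 4.56% of all genes. A30 had 3 higher and 1 lower, against 12.9% and 16.3%, and B21 had 4 higher and 1 lower, against 8.82% and 7.20%. ERF, a repressor of the family that ERK removes from the nucleus, differed by −0.04 ± 0.08 between genotypes.

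The repressor and its partners were measured by 1 gene each. CIC itself was at 6.84 ± 0.04 in KO-labelled lines and 6.90 ± 0.03 in wild-type lines (SD, n = 3 lines each), a difference of −0.06 ± 0.08 (SE, limma adjusted p = 0.827). ATXN1 differed by 0.13 ± 0.11 (adjusted p = 0.717). Transcript signal says nothing of the amount of CIC protein, which was not measured here.

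PEA3 proteins are known to be degraded through the ubiquitin ligase COP1, which works with DET1 and cullin 4, and TRIB1 and TRIB2 encode pseudokinases that bind COP1. Of 7 listed genes of this machinery, 5 were tested, and between genotypes 0 were called with a median difference of 0.01. At an unadjusted p under 0.05, 1 was lower, as were 461 of all 9686 genes tested. TRIB1 was the exception in size, at 7.06 ± 0.13 in KO-labelled lines and 7.80 ± 0.72 in wild-type lines (SD, n = 3 lines each), a difference of −0.74 ± 0.29 (SE, limma adjusted p = 0.495). The wild-type lines disagreed with each other over TRIB1, with 7.10 in N8, 8.54 in N4 and 7.77 in the parental cells, and it fell in A30 (−0.89, adjusted p = 0.00752). DET1 had opposite calls, 0.22 in A10 (adjusted p = 0.0358), −0.52 in A30 (1.48e-05) and −0.23 in B21 (0.0180). TRIB2 also had opposite calls, −0.32 in A10 (0.00876) and 0.22 in B21 (0.0384), and the cullin gene CUL4A rose in A10 (0.55, 0.000377). Over the 5, A10 had 2 called higher and 1 lower, against 3.84% and 4.56% of all genes. A30 had 2 lower, against 16.3%, and B21 had 1 higher and 1 lower, against 8.82% and 7.20%.

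Receptors and kinases upstream of the PEA3 genes showed no common direction. Of 21 listed genes of the FGF and ERK pathway, 10 were tested, and 5 were higher and 5 lower between genotypes. Of these 0 were called, the median difference was 0.00, and 1 was higher and 1 lower at an unadjusted p under 0.05. Over all 9686 genes tested, 476 were higher and 461 lower at that p. HRAS rose in A30 (0.35, limma adjusted p = 0.0122) and B21 (0.41, 0.00860), and so did the receptor gene FGFR1 (0.26, 0.00153, and 0.20, 0.0172). The receptor gene FGFR3 fell in A10 (−0.27, adjusted p = 0.0210) and A30 (−0.26, 0.00768). Over the 10, A30 had 2 called higher and 1 lower, against 12.9% and 16.3% of all genes. B21 had 2 called higher, against 8.82%, and A10 had 1 lower, against 4.56%.

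Genes known from other cells to be activated by PEA3 factors were examined last. Of 10 listed, 5 were tested (MMP14, ICAM1, CXCR4, MYB and MET), with a median difference of 0.02 between genotypes and 0 called (0 also at an unadjusted p under 0.05). MET, the receptor for hepatocyte growth factor, was called in B21 alone, at 0.25 (limma adjusted p = 0.0317), where 8.82% of all genes were called higher. MET was at 8.44 in B21 and 8.45 in the parental cells, against 8.15 in N4 and 7.97 in N8, so B21 did not exceed the parental cells. The collagenase gene MMP1 lay far below the filter, at 3.03 in KO-labelled lines and 2.80 in wild-type lines.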

How the data were processed

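RNA of 6 HEK lines was hybridised to 18 Affymetrix arrays, 3 per line. The deposited table gives 1 log2 value for each array and probe set, a scale inferred from their range of 0.57 to 14.84. Per the submitters' processing notes the authors used Affymetrix Expression Console; no version is named. Array medians ran from 5.09 to 5.18, so no further normalisation was applied, and the pseudocount was 0. Gene names came from the platform annotation, updated to RefSeq symbols: of 53617 probe sets, 16098 had 1 symbol, 0 had several, and the rest are unnamed here. Where a gene had several probe sets (779 genes), the brightest on average stood for it. Testing required a signal above 5.6 on at least 3 arrays, which 9686 genes met.

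Genotypes were compared on line means, and lines and replicates on arrays, with limma 3.58.1 in R 4.3.3 (two-sided, moderated with eBayes, Benjamini-Hochberg adjustment over 9686 genes), and the fits were tested on simulated data. Calls have an adjusted p under 0.05. The number of arrays limits the precision, and no detection flags were used. The genes, lists, comparisons and alternatives were chosen with earlier results of these data known. Named are the PEA3 genes and list members called in a KO-labelled line against the wild-type mean. Otherwise up to 4 of a list with the smallest p are named, and the 3 genes with the highest r with each PEA3 gene. ERF, DUSP6, PAX8, MMP1, the tested genes of the last list and the markers were named for their role. Alternatives were the filter, normalisation, probe set rule, variance model, random and replicate blocks, reference lines, neighbour centring, and leaving out arrays or lines. Promoter windows are from RefSeq GRCh38.p14, and figures were drawn with matplotlib 3.10.9.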

Additional observations from a re-analysis of the deposited data

How the results depend on the processing

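No difference of the PEA3 genes changed sign under any alternative run. For KO-labelled against wild-type lines, ETV1 kept its side of the threshold under 33 of 33 alternatives, ETV4 under 33 of 34 and ETV5 under 24 of 33. ETV5 passed with arrays as units and a random block for the line (0.93, adjusted p = 0.0310). It also passed with the replicate block added to that fit (0.93, 0.0153). On line means it passed without the line A10 (1.00, 0.0131) and without the line N8 (1.02, 0.0269). With single arrays left out ETV5 ranged from 0.83 to 0.99, and it passed without replicate 2 of the parental cells, replicate 2 or 3 of N8, replicate 1 of A10 or replicate 3 of B21 (adjusted p = 0.0441, 0.0180, 0.0192, 0.0252 and 0.0454). ETV5 moved away from the threshold without replicate 1 of N8 (0.83, adjusted p = 0.336) and with replicates 2 and 3 alone (0.87, 0.106). It did so too without the line N4, the parental cells, B21 or A30 (adjusted p = 0.323, 0.280, 0.226 and 0.211). ETV4 passed without the line A10 (1.03). The number of genes called between genotypes was 0 in the main comparison and 75 with arrays as units and a random block for the line. It was 43 with the replicate block added to that fit, and 6 with replicates 2 and 3 alone. It was 72, 1 and 5 without the lines A10, B21 and N8, and 0 to 5 without single arrays.

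For ETV1 in A30 the call was lost with no filter (0.46, adjusted p = 0.0754), with replicates 2 and 3 alone (0.27, 0.107), against the parental cells alone (0.48, 0.0951) and against N4 and N8 (0.45, 0.0627). Without single arrays it ranged from 0.35 to 0.57, and it was lost without replicate 1 of the parental cells, N4, N8 or A30, replicate 3 of A30, or replicate 2 or 3 of B21. ETV1 in A10 passed with the replicate block (0.46, 0.0200) and with neighbour centring (0.63, 0.0445). ETV5 in A10 ranged from 0.67 to 0.98 without single arrays. The cause of these changes was not tested. A filter at the 60th percentile (6.65) left ETV4 alone, so ETV1 and ETV5 have no value there.

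Replicate numbers were not taken as pairs: 39 of 45 pairs of arrays with the same number correlated above 0.1 after group means were removed, while 15 of 18 arrays resembled their own number most. The replicate block changed no other call of the PEA3 genes. Signals near the filter value, and 3 lines a genotype, limit what can be detected.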
